A study of Mus musculus with 4 samples.

Results

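The Toll-like receptor family of the mouse was described across sorted tumour macrophages, with 10 members chosen by gene symbol (Tlr1 to Tlr9 and Tlr13) among the 24784 genes of the deposited table, and all 10 were found in it. The libraries were made from polyadenylated RNA of cells sorted as tumour-associated macrophages out of tumours in the livers of males, 6 to 8 weeks of age. There were 2 libraries with the genotype label OXCT1mKO, which names the ketone body enzyme gene Oxct1 as the target, and 2 libraries labelled Control. All 4 came from mice given Hepa 1-6 cells, a mouse hepatoma line, by a route the labels abbreviate as i.pv., so no tumour-free macrophages were compared. The labels give neither the strain, the driver of the deletion nor the number of animals behind a library, so each p-value rests on how far these 4 libraries vary, and that variation may be technical.

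Toll-like receptors are membrane proteins that recognise conserved molecules of microbes and of damaged cells through leucine-rich repeats. They signal as dimers through an intracellular domain shared with the interleukin receptors of the IL1 family. A surface group, Tlr1, Tlr2, Tlr4, Tlr5 and Tlr6, meets lipopeptides, lipopolysaccharide and flagellin outside the cell, whereas an endosomal group, Tlr3, Tlr7, Tlr8, Tlr9 and Tlr13, meets nucleic acids inside endosomes. The adaptors Myd88 and Ticam1 carry the signal to kinases that activate NF-kB and the interferon regulatory factors. Macrophages of the liver are known to express many of these receptors and to clear gut-derived microbial products from portal blood.

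Both OXCT1mKO libraries lay above both control libraries for each of the 10 members, where 33.2% of the genes above 0 in any library did so. Among tested genes the share was 37.6%, and 37% lay below both controls. Of the 10 members, 9 had a mean of at least 1 RPKM (a level scaled to both transcript length and library size) and were tested, and 6 of these rose, whereas 32.8% of all 12523 tested genes changed, 16.4% rising and 16.4% falling (2058 and 2052 genes). With library sums made equal, haemoglobin genes aside, 2718 genes rose and 1479 fell, and 6 members rose. The 6 were Tlr2 and the endosomal receptors Tlr3, Tlr7, Tlr8, Tlr9 and Tlr13. Tlr1, Tlr4 and Tlr6 did not pass the threshold, 0 members fell, and Tlr5 was too low to be tested. Tlr6, Tlr8 and Tlr9 averaged under 1 RPKM in the control libraries and passed the filter only through the OXCT1mKO libraries, so the counts of tested members lean towards members that are higher there. A rise means an adjusted p under 0.05 in limma, a linear model over all tested genes with Benjamini-Hochberg adjustment, and fold changes are differences of mean log2(RPKM + 1), OXCT1mKO minus control, a scale that shrinks the differences of low genes. With 2 libraries a group, the smallest two-sided p of an exact permutation test is 0.333 for any member.

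Promoter sequence is shown for Tlr8, Tlr9 and Tlr13, the endosomal members whose window held the searched core of PU.1, the macrophage factor encoded by Spi1. The choice thus rests on the core itself, and a part of PU.1 in the receptor levels was not tested. The RefSeq promoter windows of build GRCm38.p6 run from 250 bases before the annotated start to 50 after it, in the direction of the gene, with the PU.1 core GAGGAA in capitals on either strand (TTCCTC where it lies on the other strand). The windows are chrX:167264280-167264579 on the minus strand for Tlr8, chr9:106222348-106222647 on the plus strand for Tlr9 and chrX:106143025-106143324 on the plus strand for Tlr13:
Tlr8: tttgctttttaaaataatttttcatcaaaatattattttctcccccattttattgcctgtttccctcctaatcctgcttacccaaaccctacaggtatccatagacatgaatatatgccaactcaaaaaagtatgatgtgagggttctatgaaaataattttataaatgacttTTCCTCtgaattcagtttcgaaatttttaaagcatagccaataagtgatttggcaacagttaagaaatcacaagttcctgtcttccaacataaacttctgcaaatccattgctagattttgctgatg
Tlr9: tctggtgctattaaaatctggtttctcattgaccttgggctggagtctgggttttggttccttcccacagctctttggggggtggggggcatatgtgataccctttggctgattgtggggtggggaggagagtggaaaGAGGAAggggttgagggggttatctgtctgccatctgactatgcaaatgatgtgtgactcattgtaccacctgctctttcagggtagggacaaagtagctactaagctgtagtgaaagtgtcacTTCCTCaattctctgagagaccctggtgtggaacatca
Tlr13: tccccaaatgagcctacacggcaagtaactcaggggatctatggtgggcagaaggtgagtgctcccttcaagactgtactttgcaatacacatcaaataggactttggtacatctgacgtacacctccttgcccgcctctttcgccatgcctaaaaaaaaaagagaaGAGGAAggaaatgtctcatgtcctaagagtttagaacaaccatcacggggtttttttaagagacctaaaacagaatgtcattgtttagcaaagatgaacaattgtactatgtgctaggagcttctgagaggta
The core was found 1 time in the windows of Tlr8 and Tlr13, at 77 to 72 and at 83 to 78 bases before the start, and 2 times in that of Tlr9, once before the start and once after it. The Tlr9 window also held the AP-1 motif TGANTCA, which occurred in 7.81% of all 32851 promoter windows. The PU.1 core occurred in 28.3% of those windows, so its presence is common, and a match is a description of letters and not of a bound site. The Tlr3 window held 0 PU.1 cores, and neither did those of Tlr2, Tlr5 and Tlr6, whereas the more upstream of the Tlr1 windows held 1. The interferon-stimulated response element, searched as 2 GAAA runs separated by 2 bases, was found only in 1 of the Tlr6 windows, as 2 overlapping matches, against 3.44% of all windows. The NF-kB pattern searched, GGG and CC 5 bases apart, occurred in 50.8% of all windows, as well as in those of Tlr2, Tlr3 and Tlr5 and in 1 of the Tlr6 windows. All motifs were searched on both strands. RefSeq windows were used for 8 members, and Tlr4 and Tlr7 are named only.

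Some properties of the libraries bear on the family. The deposited RPKM values summed to between 325034 and 377575 per library. Values of low genes multiplied by annotated exon length gathered at 1 common step and its multiples, at 0.0465 and 0.0494 RPKM times kilobase in OXCT1mKO and 0.045 and 0.0438 in control, which, if a step is 1 read or read pair, puts the library sizes at an estimated 20.2 to 22.8 M. Of the values between 0.5 and 5.5 steps, 29.4% to 31.9% per library lay within 0.05 of a whole step, so whole reads were not recovered. The control libraries stood apart from each other in markers of other leukocytes. The summed level of 8 neutrophil markers was 581 and 400 RPKM in OXCT1mKO libraries 1 and 2, against 169 and 1281 RPKM in control libraries 1 and 2. Most of each neutrophil sum came from S100a8 and S100a9. Retnlg and Mmp9 were higher in control 1 than in both OXCT1mKO libraries, and the other neutrophil markers were lower there. The summed level of 8 B cell markers was 45.9 and 49.6 RPKM in OXCT1mKO, against 19.1 and 77.0 RPKM in control. The targeted transcript Oxct1 was 14.7 and 15.4 RPKM in OXCT1mKO, against 19.3 and 20.3 RPKM in control, a log2 fold change of -0.37 ± 0.09 (SE) with a limma adjusted p of 0.0346. That call was lost with libraries scaled to equal sums (limma adjusted p 0.0627), with low genes kept in the fit (0.0504) or without control 2 (0.0559).

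**Figure D1:**
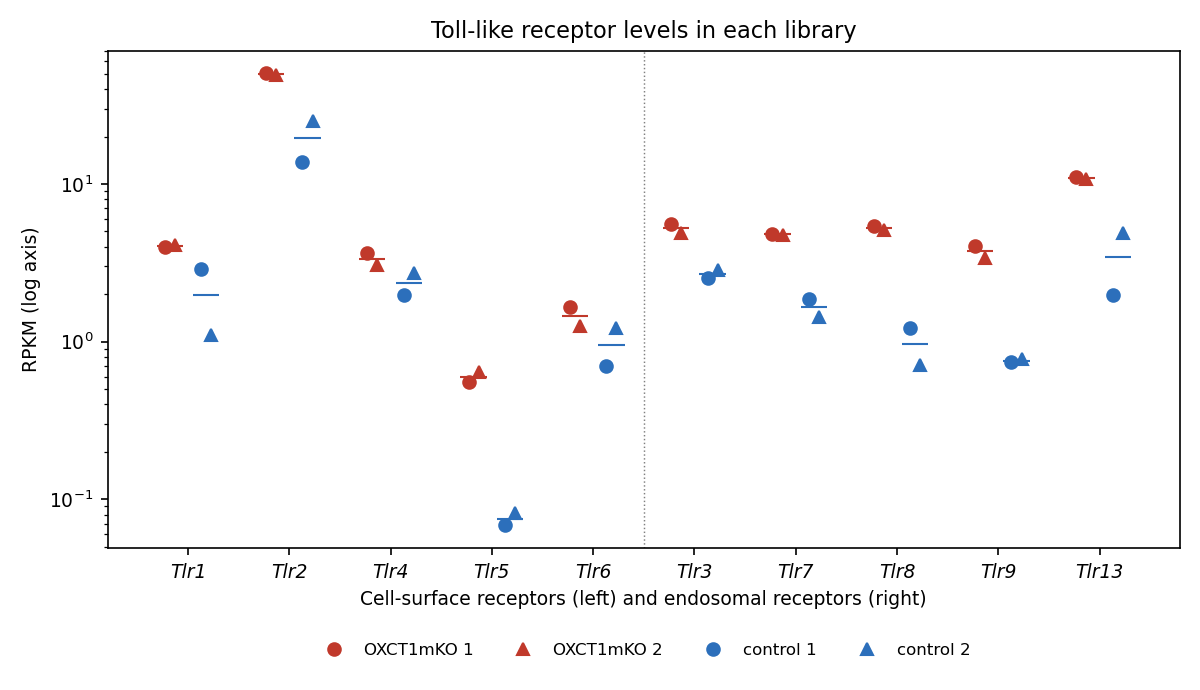
Level of each Toll-like receptor in RPKM on a log axis, with OXCT1mKO in red to the left of control in blue for each gene, circles for library 1, triangles for library 2 and bars for the group means (n = 2 each). For all 10 members both OXCT1mKO libraries lie above both control libraries. On this axis the control libraries lie farthest apart for Tlr1 and Tlr13, followed by Tlr2, Tlr6 and Tlr8.

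Among the surface receptors, Tlr2, which recognises bacterial lipopeptides as a dimer with Tlr1 or Tlr6, was the highest member in every library. Its GRCm38 position, the build used for all positions here, is chromosome 3, minus strand, 83836272 to 83841767. Tlr2 was 50.4 and 49.4 RPKM in OXCT1mKO, against 13.9 and 25.2 RPKM in control. The OXCT1mKO libraries were close to each other, and both lay well above the higher control. The difference amounted to 1.36 ± 0.27 (SE) on the log2 scale, with a limma adjusted p of 0.0246. It was 0.96 without control 1 and 1.77 without control 2, and the call was lost when genes of low level were kept in the fit (limma adjusted p 0.0632).

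The dimer partners of Tlr2 did not pass. Tlr1, on chromosome 5 from 64924679 to 64933563, was 4.00 and 4.11 RPKM in OXCT1mKO, against 2.88 and 1.10 RPKM in control. Its fold change of 0.83 ± 0.31 (SE) had a limma adjusted p of 0.0963. It was 1.27 and past the threshold without control 1 (limma adjusted p 0.0226), and 0.38 without control 2 (0.075). Tlr6, its neighbour on the same strand from 64952031 to 64960097, was 1.65 and 1.25 RPKM in OXCT1mKO, against 0.701 and 1.22 RPKM in control, so that OXCT1mKO 2 and control 2 were nearly level. The fold change came to 0.33 ± 0.20 (SE, limma adjusted p 0.245), and 0.14 and 0.52 without control 1 and without control 2. Transcripts of Tlr1 and Tlr6 are close copies in part. Of the runs of 100 bases in their annotated transcripts, 7.89% of those of Tlr1 and 7.09% of those of Tlr6 occurred in the other gene, so a share of reads could be counted for either. No such run of Tlr2, Tlr4, Tlr5, Tlr7, Tlr8, Tlr9 or Tlr13 occurred in a transcript of another gene.

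Tlr4, which recognises lipopolysaccharide of Gram-negative bacteria together with Ly96 and Cd14, lies on chromosome 4 from 66827584 to 66930284 on the plus strand. It was 3.63 and 3.08 RPKM in OXCT1mKO, against 1.97 and 2.73 RPKM in control. The groups did not overlap, but OXCT1mKO 2 exceeded control 2 by little, and the fold change of 0.39 ± 0.16 (SE) did not pass (limma adjusted p 0.129), and it was 0.22 without control 1. Tlr5, the flagellin receptor on chromosome 1 from 182954788 to 182976044, was the lowest member in every library. Its level was 0.552 and 0.641 RPKM in OXCT1mKO, against 0.0682 and 0.0821 RPKM in control. On the annotated exon length this corresponded to an estimated 56.9 and 62.2 reads in OXCT1mKO and to 7.26 and 8.97 reads in control, so the control level rests on few reads. The ratio of the means was 7.94, and Tlr5 passed when all genes above 0 were kept in the fit (log2 fold change 0.57, limma adjusted p 0.0351). In that fit, in which 10 members were tested, 5 rose, where 6.1% of all genes rose. They were Tlr3, Tlr5, Tlr7, Tlr8 and Tlr9, whereas Tlr2 and Tlr13 no longer passed.

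All 5 endosomal members rose, against 16.4% of all tested genes, and Tlr8 and Tlr9 passed the filter only through the OXCT1mKO libraries. Tlr11 and Tlr12 lie outside the members and were not assigned to either group here, so the count of 5 covers the listed members only. Of these, Tlr11 rose and Tlr12 did not pass. Whether the endosomal and surface groups differ in response was not tested. Tlr13, which in mice recognises bacterial ribosomal RNA, lies on the X chromosome from 106143204 to 106160493 on the plus strand. It was 11.0 and 10.8 RPKM in OXCT1mKO, against 1.97 and 4.90 RPKM in control. The OXCT1mKO libraries differed by little while the controls differed by a factor of 2.49, with control 2 the higher. The fold change came to 1.51 ± 0.33 (SE, limma adjusted p 0.0302), and it was 1.01 without control 1 and 2.01 without control 2. With low genes kept in the fit, Tlr13 did not pass (limma adjusted p 0.0753).

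Tlr7 and Tlr8 are neighbours on the minus strand of the X chromosome, Tlr8 from 167242696 to 167264329 and Tlr7 from 167304929 to 167330558. Tlr7, the receptor of single-stranded RNA, was 4.83 and 4.78 RPKM in OXCT1mKO, against 1.88 and 1.44 RPKM in control. Its fold change came to 1.13 ± 0.14 (SE, limma adjusted p 0.0127). Tlr8, whose human counterpart senses products of RNA breakdown, was 5.39 and 5.09 RPKM in OXCT1mKO, against 1.22 and 0.706 RPKM in control. Each OXCT1mKO library held more than any control by a wide margin, and the fold change of 1.68 ± 0.17 (SE) had a limma adjusted p of 0.0127. It exceeded that of the other tested members with all libraries, but not without control 2, where it was 1.49 against 2.01 for Tlr13 and 1.77 for Tlr2. Tlr8 lay above Tlr7 by little in both OXCT1mKO libraries and below it in both controls, and neither order was tested.

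Tlr9, the receptor of unmethylated CpG DNA, lies on chromosome 9 from 106222598 to 106226883 on the plus strand. It was 4.07 and 3.40 RPKM in OXCT1mKO, against 0.740 and 0.774 RPKM in control, and in control it was the steadiest of the tested members. The fold change came to 1.43 ± 0.14 (SE, limma adjusted p 0.0127), and it was 1.41 without control 1 and 1.44 without control 2. Tlr3, the receptor of double-stranded RNA, lies on chromosome 8 from 45395665 to 45411080 on the minus strand. It was 5.57 and 4.88 RPKM in OXCT1mKO, against 2.54 and 2.86 RPKM in control, a fold change of 0.75 ± 0.12 (SE) with a limma adjusted p of 0.017. The antisense gene Gm45542 covers 7.32% of the Tlr3 exon bases, and since the strand setting of the counting is not given, reads of the antisense gene cannot be told apart there.

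Leaving out either OXCT1mKO library removed the call of every member and of every other gene named here, where 1 and 10 of all genes passed without OXCT1mKO 1 and OXCT1mKO 2. Without OXCT1mKO 1 and without OXCT1mKO 2, the fold change was 1.65 and 1.72 for Tlr8, 1.35 and 1.38 for Tlr2, 0.29 and 0.48 for Tlr4, and 0.21 and 0.45 for Tlr6. Without control 1 and without control 2, the fold change was 1.87 and 1.49 for Tlr8, 0.96 and 1.77 for Tlr2, 0.22 and 0.55 for Tlr4, and 0.14 and 0.52 for Tlr6. The OXCT1mKO libraries were closer to each other than the controls for 7 of the 10 members on the log2(RPKM + 1) scale. Over all tested genes the median difference between libraries was 0.11 within OXCT1mKO and 0.16 within control, against 0.03 and 0.81 for Tlr2, 0.03 and 0.99 for Tlr13 and 0.03 and 0.89 for Tlr1. For Tlr3, Tlr5 and Tlr9 the order was the other way, with 0.20 within OXCT1mKO and 0.03 within control for Tlr9. In RPKM, the members in OXCT1mKO 2 stood at 0.758 (Tlr6) to 1.16 (Tlr5) of their level in OXCT1mKO 1, with Tlr2 at 0.981.

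RPKM is scaled to length, so the members can be ranked within a library. The 10 members summed to 91.1 and 87.4 RPKM in OXCT1mKO, against 27.9 and 41.0 RPKM in control. Tlr2 made up 55.3% and 56.5% of this sum in OXCT1mKO, against 49.9% and 61.5% in control. In OXCT1mKO Tlr13 came next with 12.1% and 12.3%, followed by Tlr3, Tlr7 and Tlr8 between 5.30% and 6.11%. Tlr3 and Tlr8 changed places between the OXCT1mKO libraries, and the difference between Tlr7 and its neighbours was not tested. In control Tlr3 and Tlr4 held places 3 and 4 in both libraries, whereas place 2 was held by Tlr1 in control 1 and by Tlr13 in control 2. Tlr8 made up 5.92% and 5.82% of the sum in OXCT1mKO, against 4.37% and 1.72% in control, and Tlr9 4.47% and 3.89% in OXCT1mKO, against 2.66% and 1.89% in control. Tlr4 went the other way, with 3.99% and 3.52% in OXCT1mKO and 7.07% and 6.66% in control. The 5 endosomal receptors together made up 33.9% and 33.1% in OXCT1mKO, against 30.0% and 26.0% in control. These shares are a description with no test.

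The common leukocyte gene Ptprc rose by 1.13 ± 0.08 (SE) on the log2 scale, and Csf1r, the growth factor receptor of macrophages, by 1.71 ± 0.23 (SE). In bulk samples, a different number of cells of a type and a different amount of RNA per cell cannot be told apart. Set against Ptprc within each library, 4 members (Tlr5, Tlr7, Tlr8 and Tlr9) were higher in both OXCT1mKO libraries. Among tested genes, which leave out Tlr5, the share was 2.51%. Tlr8 and Tlr9 are in the tested set only through the OXCT1mKO libraries. Tlr8 stood at 0.0869 and 0.0816 RPKM per RPKM of Ptprc in OXCT1mKO, against 0.044 and 0.0252 in control. Tlr9 stood at 0.0656 and 0.0545 in OXCT1mKO, against 0.0267 and 0.0276 in control. Tlr7 exceeded its controls by little, with 0.0779 and 0.0766 in OXCT1mKO and 0.0678 and 0.0513 in control. Tlr3 and Tlr4 were lower per Ptprc in both OXCT1mKO libraries, as were 88.2% of tested genes, and the groups overlapped for Tlr1, Tlr2, Tlr6 and Tlr13. Tlr2 stood at 0.812 and 0.792 in OXCT1mKO, between the controls at 0.502 and 0.90. Csf1r itself differed between the control libraries, at 45.8 and 28.8 RPKM in control 1 and control 2. Set against Csf1r, Tlr5, Tlr8 and Tlr9 were higher without overlap, and the share was 0.647% among tested genes, again without Tlr5. Tlr9 exceeded control 2 by little, with 0.0319 and 0.0295 in OXCT1mKO and 0.0162 and 0.0269 in control. Tlr1, Tlr3, Tlr4 and Tlr6 were lower per Csf1r, as were 93.6% of tested genes. Tlr1 lay below control 2 by little, with 0.0314 and 0.0357 in OXCT1mKO and 0.0629 and 0.0382 in control.

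**Figure D2:**
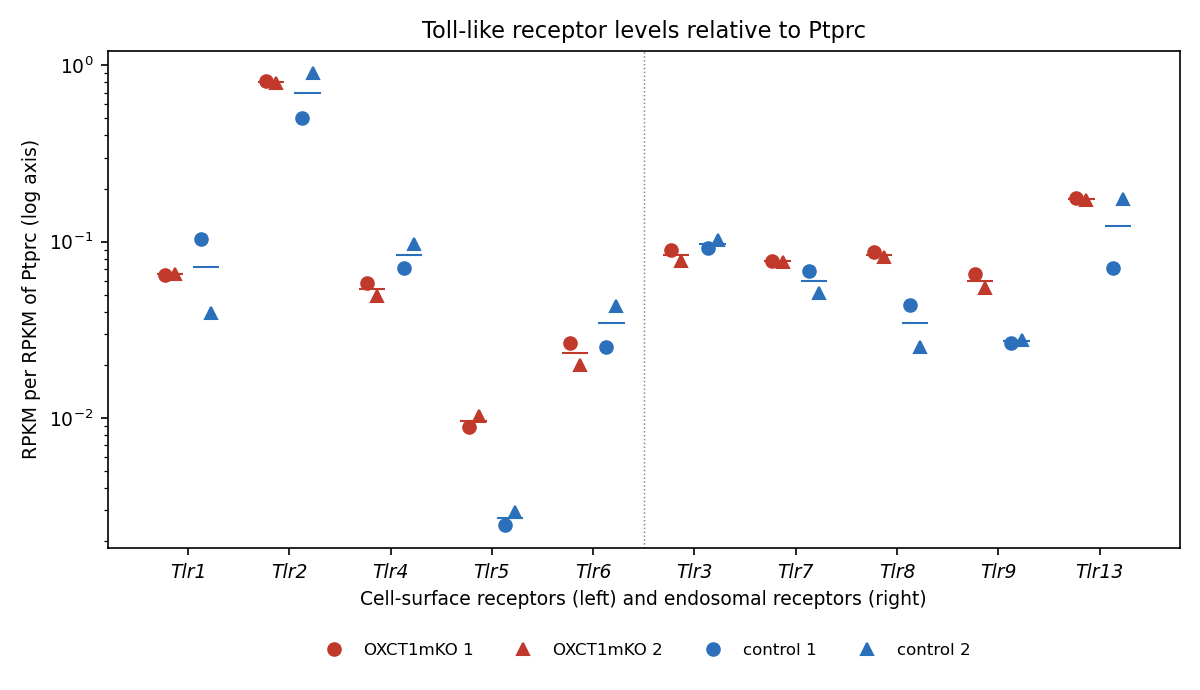
Level of each Toll-like receptor divided by that of Ptprc in the same library, on a log axis, with OXCT1mKO in red to the left of control in blue, circles for library 1, triangles for library 2 and bars for the group means (n = 2 each). Tlr5, Tlr7, Tlr8 and Tlr9 remain above both controls, whereas Tlr3 and Tlr4 lie below them.

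The mouse receptors outside the 10 members are Tlr11 and Tlr12, which recognise profilin of protozoa. Tlr11 was 2.22 and 1.73 RPKM in OXCT1mKO, against 0.280 and 0.0819 RPKM in control, a rise of 1.33 ± 0.18 (SE) with a limma adjusted p of 0.0131. Like Tlr8 and Tlr9, it passed the filter only through the OXCT1mKO libraries. Tlr12 was 7.15 and 8.37 RPKM in OXCT1mKO, against 8.98 and 2.06 RPKM in control, so the groups overlapped (limma adjusted p 0.392). Its fold change of 0.66 became 1.51 without control 1 and -0.19 without control 2. High Tlr1 and Tlr12 thus went together in control 1, and high Tlr2 and Tlr13 in control 2.

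The genes that work with the receptors were grouped by role, and their calls are read against the 16.4% of tested genes that rose and the median fold change of 0.00455 over all of them. Of 6 tested co-receptor genes 5 rose, with a median of 0.93. Cd14, which hands lipopolysaccharide to Tlr4 and Ly96, was 226 and 274 RPKM in OXCT1mKO, against 81.3 and 139 RPKM in control, a rise of 1.22 ± 0.28 (SE, limma adjusted p 0.0318, but 0.0766 with low genes kept in the fit). Ly96, the partner of Tlr4 at the surface, was 17.0 and 14.5 RPKM in OXCT1mKO, against 8.84 and 7.99 RPKM in control (0.83 ± 0.12 SE, limma adjusted p 0.0141). The partners of Tlr4 passed while Tlr4 itself did not, and the difference between the genes was not tested. Cd180, a Toll-like receptor homologue, rose by 1.42 ± 0.15, its partner Ly86 by 1.00 ± 0.15, and Cd36, a scavenger receptor that assists Tlr2, by 0.86 ± 0.15. Lbp, the plasma protein that binds lipopolysaccharide and is made by hepatocytes, was 62.3 and 106 RPKM in OXCT1mKO, against 125 and 137 RPKM in control, and did not pass (-0.69 ± 0.26 SE, limma adjusted p 0.10). The value was -0.31 without OXCT1mKO 1 and -1.06 without OXCT1mKO 2.

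**Figure D3:**
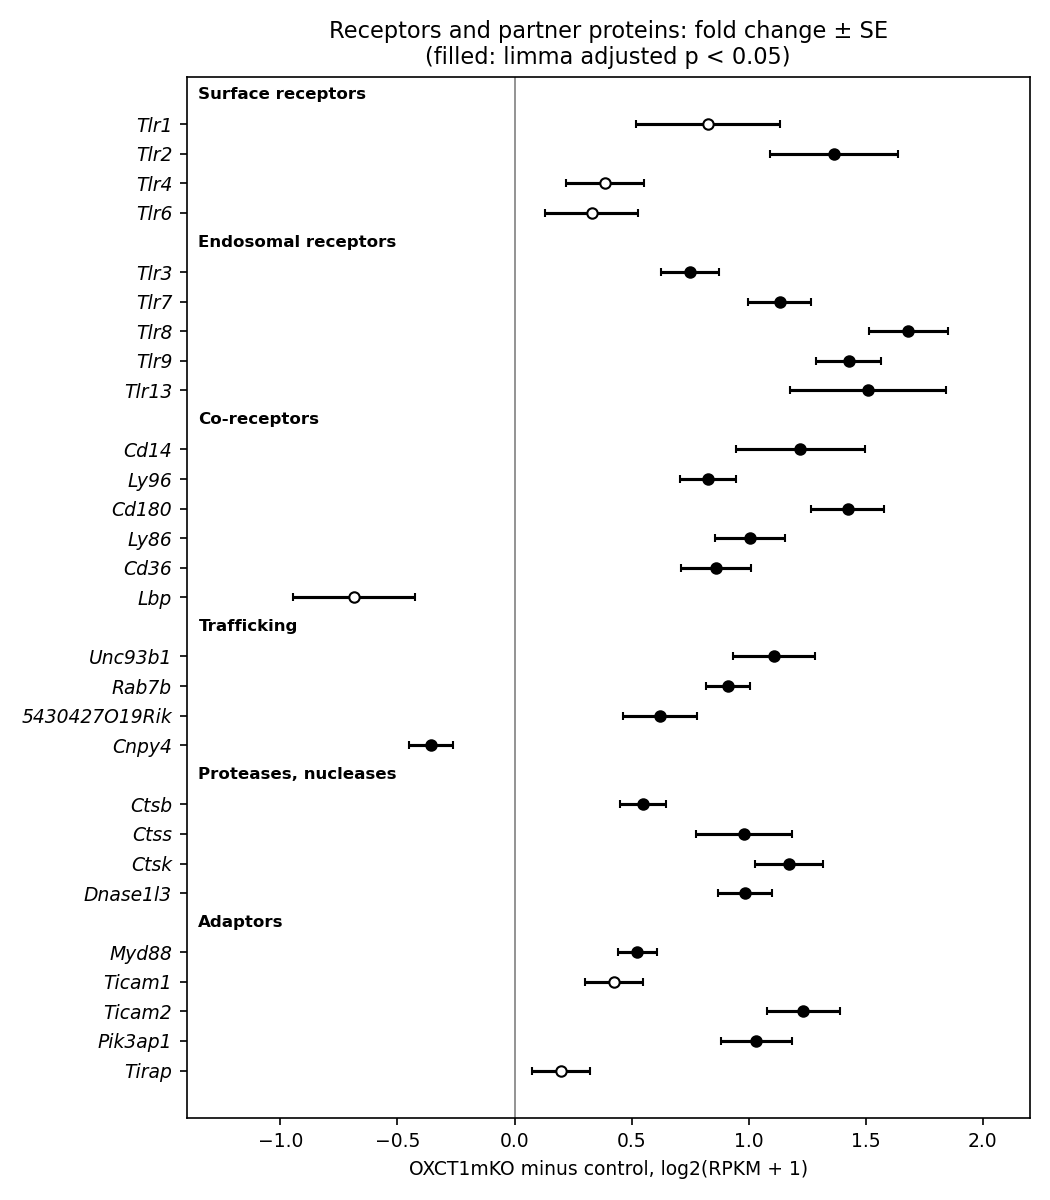
Difference between OXCT1mKO and control on the log2(RPKM + 1) scale with its SE from the limma fit for the 9 tested members and the partner genes named in the text, grouped by role. Filled circles have a limma adjusted p under 0.05, open circles do not, and the line marks no difference. The endosomal receptors and most co-receptors lie between 0.75 and 1.68, and Tlr1, Tlr4 and Tlr6 are open.

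Of 8 tested chaperone and trafficking genes 3 rose and 1 fell, with a median of 0.31. Unc93b1, which carries the nucleic acid receptors to endosomes, was 113 and 113 RPKM in OXCT1mKO, against 61.7 and 43.8 RPKM in control, a rise of 1.11 ± 0.18 (SE, limma adjusted p 0.016). Rab7b, a small GTPase of late endosomes, rose by 0.91 ± 0.09, and 5430427O19Rik by 0.62 ± 0.16, a gene that passed the filter only through the OXCT1mKO libraries and whose call was lost without control 1 (limma adjusted p 0.0885) or with low genes kept in the fit (0.0701). Cnpy4, a relative of the chaperone Cnpy3, fell by 0.36 on the log2 scale (SE 0.09, limma adjusted p 0.0428), a call lost with equal sums (0.0777), without control 1 (0.0586) or without control 2 (0.0731). Of 12 genes for endosomal proteases and nucleases 6 rose and 0 fell, with a median of 0.44. Ctsb and Ctss, cathepsins of the endosome and lysosome, rose by 0.55 ± 0.10 and 0.98 ± 0.21 (Ctss did not pass with low genes kept in the fit, limma adjusted p 0.0703), Ctsk by 1.17 ± 0.14, and the extracellular nuclease gene Dnase1l3 by 0.98 ± 0.12.

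Of 5 tested adaptor genes 3 rose, with a median of 0.52. Among the risers, Ticam2 passed the filter only through the OXCT1mKO libraries. Myd88, the adaptor of all members except Tlr3, was 31.4 and 31.7 RPKM in OXCT1mKO, against 21.8 and 21.4 RPKM in control, a rise of 0.52 ± 0.08 (SE, limma adjusted p 0.0156). Ticam2, which links Tlr4 to the adaptor Ticam1, was 2.80 and 2.45 RPKM in OXCT1mKO, against 0.653 and 0.431 RPKM in control (1.23 ± 0.15 SE, limma adjusted p 0.0128). Pik3ap1, an adaptor between Toll-like receptors and phosphoinositide kinase, rose by 1.03 ± 0.15, whereas Ticam1, the adaptor of Tlr3, had 0.42 ± 0.13 (limma adjusted p 0.0575, but 0.0278 without control 2 and 0.0314 with equal sums) and Tirap, which brings Myd88 to the surface receptors, 0.20 ± 0.12 (0.262).

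Of 21 kinase and ubiquitin ligase genes 8 rose and 2 fell, with a median of 0.32. Syk rose by 1.25 ± 0.19, Map3k8 by 1.16 ± 0.24 and Btk by 0.83 ± 0.15, Map3k8 and Btk losing their call with low genes kept in the fit (limma adjusted p 0.0655 and 0.0555), while the receptor-proximal kinase genes Irak4 and Irak1 rose by 0.43 ± 0.11 and 0.32 ± 0.08. Without control 2 neither passed (limma adjusted p 0.0648 for Irak4 and 0.0568 for Irak1), nor did Irak1 without control 1 (0.0625). The genes that fell were Ube2v1, a partner of the ubiquitin-conjugating enzyme of Traf6 (-0.50 ± 0.09), and Tab1, a partner of the kinase Map3k7 (-0.39 ± 0.10, a call lost with equal sums, limma adjusted p 0.0832, and without control 1 or control 2, 0.0819 and 0.0754). Of 11 transcription factor genes 7 rose and 0 fell, with a median of 0.75. The NF-kB subunit gene Rel was 32.0 and 36.5 RPKM in OXCT1mKO, against 9.65 and 10.6 RPKM in control, a rise of 1.66 ± 0.11 (SE, limma adjusted p 0.0127). Irf5 rose by 1.29 ± 0.26, Spi1 by 1.12 ± 0.22, Irf7 by 1.08 ± 0.18 and Irf8 by 0.91 ± 0.11, and Irf5 and Spi1 did not pass with low genes kept in the fit (limma adjusted p 0.0623 and 0.0589).

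Of 18 tested negative regulators of the pathway 5 rose and 1 fell, with a median of 0.25. The rises included Dusp1, a phosphatase of MAP kinases (1.08 ± 0.20, with a limma adjusted p of 0.0582 when low genes were kept), Inpp5d, an inositol phosphatase (0.78 ± 0.14), and Socs3, a suppressor of cytokine signalling (0.73 ± 0.11). Sigirr, an inhibitory member of the IL1 receptor family, was 8.10 and 7.77 RPKM in OXCT1mKO, against 13.6 and 12.3 RPKM in control (-0.64 ± 0.10 SE, limma adjusted p 0.0156).

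Genes known to be induced by Toll-like receptors in macrophages did not move one way. Of 21 tested 7 rose and 4 fell, where 16.4% of tested genes fell, with a median of 0.17. Il1b, an inflammatory cytokine, was 550 and 697 RPKM in OXCT1mKO, against 142 and 192 RPKM in control, a rise of 1.90 ± 0.20 (SE, limma adjusted p 0.0127). Ptgs2, the inducible cyclooxygenase, rose by 1.36 ± 0.14, Il12b by 1.49 ± 0.21, Il10, an anti-inflammatory cytokine, by 1.16 ± 0.18, and the costimulatory receptor Cd40 by 0.89 ± 0.10. Chemokine genes were called in both directions. Cxcl9 and Cxcl10, known as interferon-inducible attractants of T cells, rose by 1.65 ± 0.29 and 1.11 ± 0.25, and neither passed with low genes kept in the fit (limma adjusted p 0.0516 and 0.0759), nor did Cxcl10 without control 1 (0.0569). Cxcl1, which attracts neutrophils, was 52.3 and 43.4 RPKM in OXCT1mKO, against 113 and 140 RPKM in control (-1.38 ± 0.15 SE, limma adjusted p 0.0127), and Ccl4, Ccl2 and Ccl3 fell by 0.75, 0.62 and 0.58 on the log2 scale, the call of Ccl3 being lost with low genes kept in the fit (limma adjusted p 0.0709). Tnf was 54.2 and 63.0 RPKM in OXCT1mKO, against 67.5 and 137 RPKM in control, and did not pass (-0.71 ± 0.34 SE, limma adjusted p 0.165), although it did without control 1 (-1.21, limma adjusted p 0.0226), against -0.20 without control 2.

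**Figure D4:**
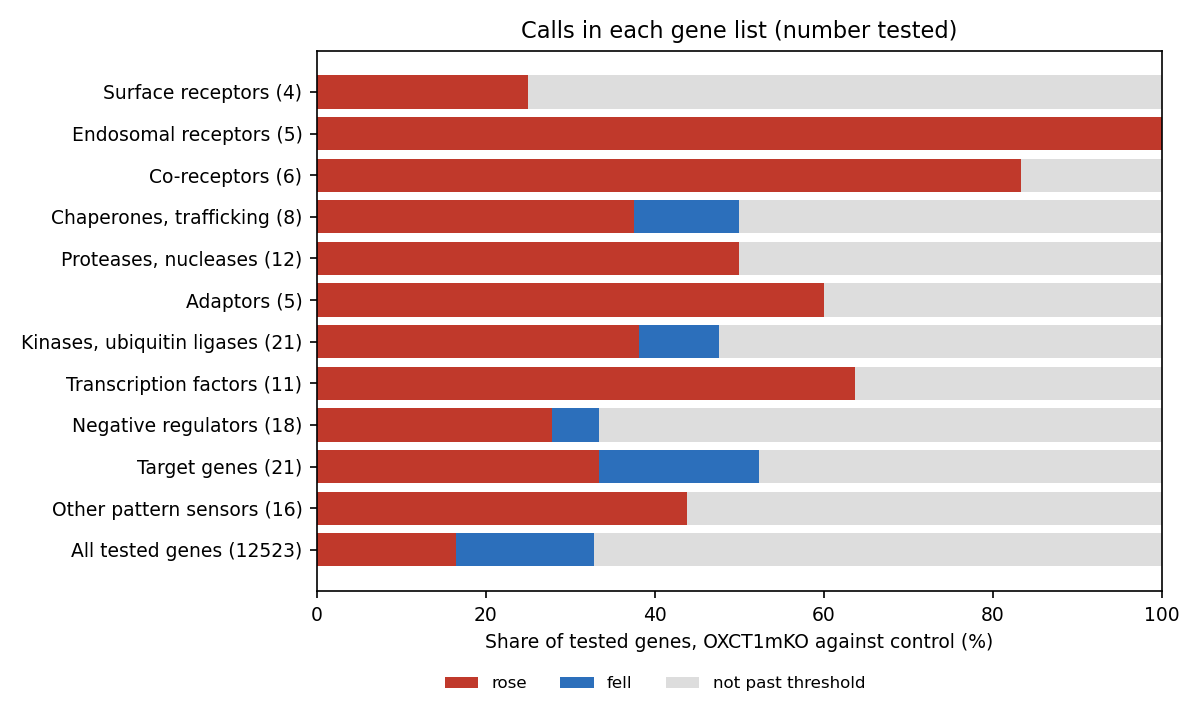
Share of the tested genes of each list that rose (red), fell (blue) or did not pass the threshold (grey) in OXCT1mKO against control, with the number tested in brackets and all tested genes in the bottom row. All 5 tested endosomal members and 5 of 6 tested co-receptor genes rose, against 16.4% of all tested genes. Tlr8 and Tlr9 passed the filter only through the OXCT1mKO libraries.

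Receptors of other families that sense microbes were set beside the Toll-like receptors. Of 16 tested genes 7 rose and 0 fell, with a median of 0.64, and the riser Mb21d1 passed the filter only through the OXCT1mKO libraries. Clec7a, the receptor of fungal glucans, was 173 and 212 RPKM in OXCT1mKO, against 57.0 and 57.7 RPKM in control, a rise of 1.72 ± 0.13 (SE, limma adjusted p 0.0127). Ifi204, a sensor of DNA, rose by 1.36 ± 0.11, and Nod2 and Nod1, sensors of bacterial cell wall fragments, by 1.28 ± 0.12 and 0.71 ± 0.11. Higher levels in OXCT1mKO were therefore not limited to Toll-like receptors among these sensors.

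Markers of several cell types moved along the groups, and their part in the levels of the Toll-like receptors was not tested. Their calls are read against the 16.4% of tested genes that rose and the 16.4% that fell. Among the markers, the risers Cd163, Xcr1, Flt3, Siglech and Cps1 passed the filter only through the OXCT1mKO libraries. Of 8 leukocyte and macrophage markers 5 rose, with a summed level of 415 to 430 RPKM in OXCT1mKO and 163 to 242 RPKM in control. Of 8 Kupffer cell markers 7 rose, the sums being 466 and 279 RPKM in OXCT1mKO and 35.7 and 39.3 RPKM in control. Monocyte markers rose for 7 of 8, with sums of 590 to 692 RPKM in OXCT1mKO and 237 to 282 RPKM in control. Conventional dendritic cell markers rose for 7 of 8, with sums of 102 to 114 RPKM in OXCT1mKO and 59.5 to 70.5 RPKM in control. The largest part of each dendritic cell sum was Snx22, which was lower in OXCT1mKO. It was 36.6 and 39.0 RPKM there, against 46.8 and 53.9 RPKM in control. Dendritic cells of these kinds are known for Tlr3 and Tlr11 in mice. Of 6 tested plasmacytoid dendritic cell markers 1 rose, and the sums, most of it from Bst2, were 340 to 345 RPKM in OXCT1mKO and 320 to 371 RPKM in control. Of the 8 markers named, 5 were higher without overlap, where 33.2% of the genes above 0 in any library were. Siglech was 2.2 and 3.50 RPKM in OXCT1mKO, against 0.521 and 1.04 RPKM in control, a rise of 1.11 ± 0.24 (SE, limma adjusted p 0.0303) that did not pass without control 1 (0.0736). Spib was 4.42 and 5.35 RPKM in OXCT1mKO, against 1.30 and 3.22 RPKM in control (limma adjusted p 0.0792, but 0.018 without control 2), and the untested Cox6a2 and Ccr9 had ratios of means of 3.86 and 2.33. B cells and plasmacytoid dendritic cells are known for Tlr9 and Tlr7, and 0 of 8 B cell markers passed the limma threshold. The part of either cell type in the levels of Tlr7 and Tlr9 was not tested. Of 8 neutrophil markers 0 rose and 1 fell. Of 8 endothelial markers 6 rose, with sums of 1406 to 1558 RPKM in OXCT1mKO and 773 to 944 RPKM in control, while 4 of 7 T cell markers fell, with sums of 42.8 to 75.5 RPKM in OXCT1mKO and 131 to 211 RPKM in control. Of 8 hepatocyte markers 6 were higher without overlap, where 37.6% of tested genes were, and their median log2 fold change was 1.29. Mup20 rose by 1.33 ± 0.16 and Cps1 by 1.38 ± 0.36, a call lost without control 1 or control 2 (limma adjusted p 0.106 and 0.0961) and a value of 0.87 without OXCT1mKO 1, and Fgb fell by 1.17 on the log2 scale. Hepatocyte markers, most of it from Alb, summed to 488 to 726 RPKM in OXCT1mKO and 513 to 596 RPKM in control, and epithelial and tumour markers to 606 to 724 RPKM in OXCT1mKO and 798 to 1155 RPKM in control. No marker of these lists was at 0 in any library.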

How the data were processed

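The authors deposited 1 table of RPKM values, with genes as rows and the 4 libraries as columns. Per the submitters' processing notes, STAR 2.10, R 4.0.5 and build mm10 were used, with no role stated, and for the counter, strand setting and annotation the sources used here name nothing. Since RPKM is a scaled unit, count tests were not run, and the depth could only be estimated. Libraries were assigned to groups by their titles and genotype labels. Values were transformed to log2(RPKM + 1), and the 12523 genes with a mean of at least 1 RPKM entered a limma fit (version 3.58.1, in R 4.3.3) with a variance trend, two-sided, with Benjamini-Hochberg adjustment over all of them. The fit was also run on simulated data with independent noise and few changed genes. That setting differs from these data, where 4110 of the 12523 tested genes passed, so no error rate is taken from it. Members, gene lists and rules were chosen with earlier results of these data known. Named genes were the 10 members, Tlr11, Tlr12, Oxct1, Ptprc, Csf1r and up to 4 genes with the smallest p in each pathway list. The others (Cd14, Lbp, Tab1, Ccl2, Ccl3, Ccl4, Tnf, Irf5, Il12b, Il10, Irak1, Irak4, Tirap, Cxcl9, Cxcl10, Mb21d1 and single cell type markers) were named after their values were seen. Positions, exon lengths and transcripts came from GENCODE M21 (GRCm38, also called mm10), and promoter windows from RefSeq on GRCm38.p6. Proteins were not used here. The alternatives were another pseudocount, other filters, equal RPKM sums without 12 haemoglobin genes, no variance trend, each library left out and a replicate block.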

Additional observations from a re-analysis of the deposited data

How the results depend on the processing

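The 6 members past the limma threshold remained 6 in number with a pseudocount of 0.1, with equal RPKM sums and without a variance trend, and were 5 of 10 with no filter and 2 of 2 with a minimum mean of 5 RPKM, where fewer members were tested. With that minimum mean, 3435 of all 8204 tested genes passed, 1562 of them higher. Leaving out 1 library gave 0 to 7 members, 0 without either OXCT1mKO library, fits in which the lone library is assumed to vary like the controls. Every member kept its direction in every alternative in which it was tested. Tlr5 was tested only with no filter, and only Tlr2 and Tlr13 were tested with a minimum mean of 5 RPKM. Tlr8 ranged from 1.49 to 2.37 and Tlr9 from 1.32 to 2.16, the highest values being those with a pseudocount of 0.1. Over all genes 4110 passed, 2058 higher and 2052 lower, against 2718 higher and 1479 lower with equal sums, which moved the median fold change to 0.09, and 2340 with no filter. The range was 1 to 4418 with 1 library left out. Of 118 tested genes of the pathway lists 59 passed, 34 with no filter and 0 to 67 with 1 library left out. The 59 pathway genes of the main fit are read against the 32.8% of all tested genes that passed. Tlr12 had -0.19 without control 2 and 1.51 without control 1. The cause was not tested. The labels number the replicates but do not say that numbers pair the samples, and with 2 libraries a group the deviations of libraries with the same number correlated at 0.0545. With the replicate number as a block, 6 members, 3606 genes and 59 pathway genes passed. Under the block 6 named genes lost their call, Oxct1 (limma adjusted p 0.0577), Irak4 (0.062), 5430427O19Rik (0.0632), Cnpy4 (0.075), Irak1 (0.0786) and Tab1 (0.081), and Lbp (0.0469) and Spib (0.0335) gained one. With no filter 21 named genes lost their call, namely Tlr2, Tlr13, Oxct1, 5430427O19Rik, Cnpy4, Ctss, Btk, Map3k8, Spi1, Dusp1, Cd14, Tab1, Ccl3, Irf5, Irak1, Irak4, Cxcl9, Cxcl10, Cps1, Siglech and Mb21d1. Depth limits Tlr5 most, whose control level rests on an estimated 7.26 and 8.97 reads.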
